A study of Mus musculus with 9 samples.

Results

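Haematopoietic growth factor receptors are the cell-surface proteins through which blood cells and their progenitors sense colony-stimulating factors and related cytokines. The transcripts of 8 such genes, of 55322 listed, were followed: *Csf1r*, *Flt3*, *Kit*, *Csf2ra*, *Il3ra*, *Csf2rb*, *Csf2rb2* and *Csf3r*. They were chosen by name, with earlier results of these data known. RNA was sequenced from B cells of the bone marrow (BM) that did or did not carry CD11b, an integrin chain of myeloid cells, and from peritoneal macrophages (PMs), with 3 libraries in each group. Both B cell groups came from WT C57BL/6 mice that had received LPS, a component of the bacterial cell wall, at 5 mg/kg into the peritoneal cavity 48 h earlier, whereas the PMs (CD11b+F4/80+) came from naive WT mice without LPS. The BM cells had been depleted of cells bound by antibodies to T cell (CD3, CD4, CD8), erythroid (TER119), NK cell (NK1.1) and granulocyte (Gr-1) markers before CD11b+ and CD11b- B cells were sorted. No source used here gives the age of the mice or says whether a library came from 1 mouse or a pool. The paper's methods reserve SD for biological replicates and SEM for technical ones, and its plot of FPKM values carries SD. By that rule the libraries were biological replicates, and p-values measure the spread between them. Cell type, tissue and LPS all differ between the B cells and the PMs and cannot be told apart.

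These receptors fall into 3 kinds. *Csf1r*, *Flt3* and *Kit* encode receptor tyrosine kinases, which dimerise around their ligand and phosphorylate each other. The receptors for GM-CSF, IL-3 and IL-5 each join an alpha subunit, which recognises the ligand, to a beta subunit, which carries the signal through JAK2 and STAT5. Mice have a beta subunit shared by all of these receptors (*Csf2rb*) and a close copy that serves IL-3 alone (*Csf2rb2*). The G-CSF receptor (*Csf3r*) signals as a pair of identical chains. CSF1R is a hallmark of macrophages and CSF3R of neutrophils, KIT and FLT3 are best known on stem and progenitor cells, and IL-5 receptors occur on eosinophils and on some mouse B cells.

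The libraries held 18014658 to 35251215 reads on genes. Levels are FPKM (read pairs per kilobase of exon, scaled to the reads on genes of each library), which allow genes of unlike length to be compared. All 13 B cell markers were higher in both B cell groups than in PMs, and their summed level was 13141 to 16315 FPKM in the B cell libraries against 144 to 281 FPKM in PMs. The 14 monocyte and macrophage markers summed to 24447 to 61516 FPKM in PMs and to 40.6 to 58.4 FPKM in CD11b- B cells. The same markers summed to 317, 294 and 117 FPKM in replicates 1, 2 and 3 of CD11b+ B cells. The 14 neutrophil markers summed to 1.79 to 3.07 FPKM in CD11b- B cells, to 18.5 to 35.4 FPKM in PMs, and to 668, 1604 and 219 FPKM in CD11b+ replicates 1, 2 and 3. Each neutrophil marker had reads in the CD11b+ group as a whole, and *Mpo*, a granule enzyme, had 8.51, 2.79 and 0 FPKM in the same libraries. In whole populations of cells, fewer cells with a transcript and less of the transcript per cell cannot be told apart.

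*Csf1r* (ENSMUSG00000024621, chr18:61100598-61132149 on GRCm38, plus strand), the receptor for CSF1 and IL-34, was the most abundant of the 8 genes in PMs, at 160, 198 and 210 FPKM in replicates 1, 2 and 3. CD11b- B cells had 0.223, 0.174 and 0.130 FPKM. CD11b+ B cells had 3.56, 3.19 and 1.36 FPKM. The 3 groups did not overlap, and the CD11b+ libraries lay between the others, with replicate 3 the lowest of them. The mean in CD11b+ B cells (2.70 ± 1.18, SD, n = 3) was 15.4 times that in CD11b- B cells (0.176 ± 0.0468) and 1.42% of that in PMs (190 ± 26.0).

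The test was limma on log2(FPKM + 1), adjusted by Benjamini-Hochberg over all genes tested, and a gene was called at an adjusted p under 0.05. On this scale, which understates the change of low genes, *Csf1r* differed by 1.60 between CD11b+ and CD11b- B cells (SE 0.30, 95% interval 0.91 to 2.28), with all 3 CD11b+ libraries above all CD11b- libraries, and the adjusted p of 0.179 did not pass the threshold. The adjusted p ranged from 3.70e-16 to 0.663 over 17 alternative settings. On the whole reads behind the FPKM, both count tests called it, with a log2 fold change of 3.92 and an adjusted p of 0.0169 in edgeR, and of 3.92 and 3.70e-16 in DESeq2. Without CD11b+ replicate 3, limma called it as well, at 1.89 and an adjusted p of 0.0445. *Csf1r* fell by 5.73 on the log2 scale in CD11b+ B cells against PMs (adjusted p = 4.36e-06) and fell by 7.33 in CD11b- B cells against PMs (3.44e-07). Antisense *Hmgxb3* and the microRNA gene *Mir6983* overlap *Csf1r*, and no source used here says whether reads were counted by strand, so their reads cannot be told apart; *Flt3* (*Gm26597*), *Il3ra* (*Gm48860*) and both beta subunits (a microRNA gene) have such overlaps too. *Csf1r* is among the genes that the study itself singled out in these libraries, so its direction here is not independent evidence.

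*Flt3* (ENSMUSG00000042817, chr5:147330741-147400489, minus strand), the receptor for FLT3 ligand on early progenitors and dendritic cell precursors, was low in all groups. CD11b+ B cells had 1.58, 0.767 and 1.56 FPKM. CD11b- B cells had 0.602, 0.223 and 0.702 FPKM. Every CD11b+ library lay above every CD11b- library, although CD11b+ replicate 2 was only just above the highest of them. The mean of the CD11b+ libraries was 2.56 times that of the CD11b- libraries, a difference of 0.60 on the log2 scale (95% interval 0.02 to 1.19) that was not called (adjusted p = 0.644). The 6 plasmacytoid dendritic cell markers summed to 9.39 to 11.6 FPKM in CD11b+ and to 4.49 to 11.0 FPKM in CD11b- B cells, 3 of the 6 (*Klk1*, *Ccr9* and *Clec12a*) were higher in CD11b+ B cells without overlap, where 8.63% of all genes were, and limma called 0 of them, with 2 at an unadjusted p under 0.05, where 7.68% of all genes were. *Klk1* had 0.948, 2.55 and 0.948 FPKM in CD11b+ B cells and 0 in every CD11b- library, whereas *Siglech*, a defining marker, overlapped. The part of these cells in the *Flt3* values was not tested. PMs had 5.08, 0.687 and 0.497 FPKM, so replicate 1 stood apart from the other PM libraries. The difference between CD11b+ B cells and PMs was -0.13 on the log2 scale (adjusted p = 0.859), but 0.51 without PM replicate 1 and 0.05 without CD11b+ replicate 2, so its direction rests on these libraries. CD11b- B cells were 0.73 below PMs on the same scale (adjusted p = 0.322, and 0.00710 to 0.753 over the alternatives), and the difference was -0.09 without PM replicate 1. With all libraries, DESeq2 called the difference at 0.0153 and edgeR without a filter at 0.00710.

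*Kit* (ENSMUSG00000005672, chr5:75574916-75656722, plus strand), the receptor for stem cell factor, was close to the limit of detection. It had 19 reads over the 3 PM libraries, 100 over the CD11b- libraries and 12 over the CD11b+ libraries. Of the CD11b- libraries, replicate 3 had 0.315 FPKM and replicates 1 and 2 had 0.0135 and 0.0193 FPKM. CD11b+ B cells had 0.00764, 0.0300 and 0.00955 FPKM, and PMs had 0.0374, 0 and 0.0723 FPKM. CD11b- replicate 3 was thus the one library that stood apart, and the CD11b+ and CD11b- libraries overlapped (log2 difference -0.12, 95% interval -0.42 to 0.17, adjusted p = 0.735). The difference between CD11b- B cells and PMs was 0.10 (adjusted p = 0.591), turning to -0.04 after quantile normalization. Between CD11b+ B cells and PMs, *Kit* was below the filter on low genes in limma, and the count tests that kept it did not call it (adjusted p = 0.579 in edgeR without a filter and 0.498 in DESeq2).

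The same CD11b- replicate 3 was high for *Il7r*, the IL-7 receptor chain of early B cells, at 36.5 FPKM against 0.610 and 0.615 FPKM in CD11b- replicates 1 and 2. The 9 B cell precursor markers summed to 1344 FPKM there, against 417 and 413 FPKM. CD11b+ replicate 3 also had more *Il7r* than its group (11.0 FPKM, against 0.694 and 0.574), with 617 FPKM of precursor markers against 300 and 342, but only 0.00955 FPKM of *Kit*. The part of B cell precursors in these values was not tested. The 8 stem and progenitor cell markers summed to 0.308 to 0.357 FPKM in CD11b- B cells, with 0.357 FPKM in replicate 3 and 0.354 in replicate 1.

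**Figure D1:**
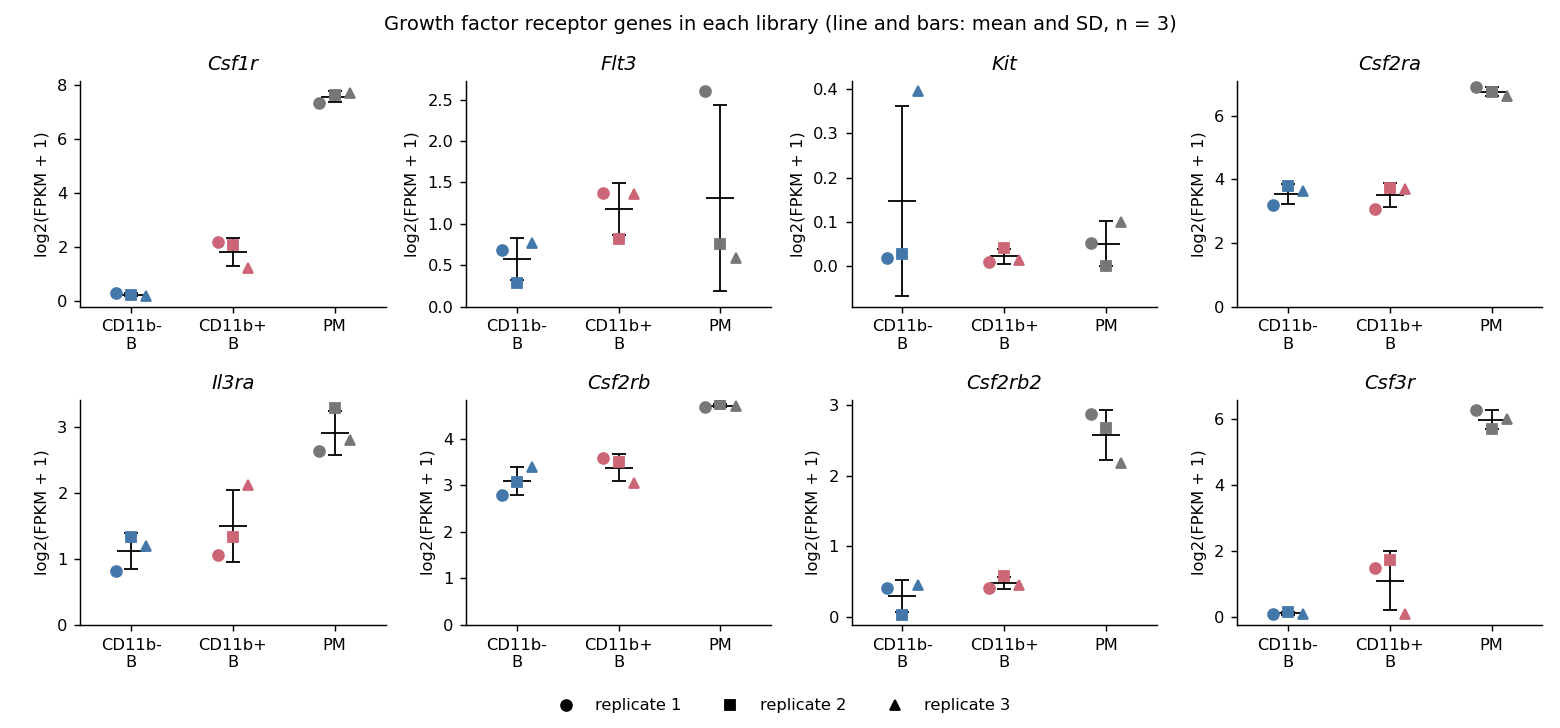
Level of each receptor gene in the 9 libraries, as log2(FPKM + 1) on the vertical axis, with its own scale for each gene, and the groups on the horizontal axis. Symbols are libraries, and bars are the mean and SD of 3. PMs lie above both B cell groups for 6 genes, *Flt3* and *Kit* excepted, and CD11b+ B cells lie apart from CD11b- B cells for *Csf1r* and *Flt3* alone.

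In the plot of levels by library, CD11b+ replicate 3 sits at the level of CD11b- B cells for *Csf3r* but above them for *Csf1r*. The alpha subunits of the GM-CSF and IL-3 receptors showed no such gap between the B cell groups. *Csf2ra* (ENSMUSG00000059326, chr19:61223957-61228429, minus strand), the alpha subunit of the GM-CSF receptor, had 8.09, 12.7 and 11.5 FPKM in CD11b- B cells and 7.42, 12.3 and 11.9 FPKM in CD11b+ B cells. The 2 groups covered nearly the same range. Their log2 difference was -0.03 with a 95% interval from -0.59 to 0.52 (adjusted p = 0.971), and without CD11b+ replicate 1 it was 0.18. PMs had 119, 105 and 98.1 FPKM, and their mean (107 ± 10.4) compared with 10.8 ± 2.39 in CD11b- and 10.6 ± 2.72 FPKM in CD11b+ B cells. *Csf2ra* fell by 3.25 on the log2 scale in CD11b+ B cells against PMs (adjusted p = 2.89e-05) and fell by 3.22 in CD11b- B cells against PMs (1.77e-05).

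*Il3ra* (ENSMUSG00000068758, chr14:14346275-14356011, plus strand), the alpha subunit of the IL-3 receptor, had 5.26, 8.83 and 5.96 FPKM in PMs. CD11b- B cells had 0.757, 1.54 and 1.30 FPKM, and CD11b+ B cells had 1.08, 1.52 and 3.35 FPKM. Here CD11b+ replicate 3 was the highest of the B cell libraries, although it was the lowest of its group for *Csf1r* and *Csf3r*. The B cell groups overlapped (log2 difference 0.38, 95% interval -0.39 to 1.15, adjusted p = 0.727), and the difference was 0.07 without CD11b+ replicate 3. *Il3ra* fell by 1.79 in CD11b- B cells against PMs (adjusted p = 0.00270). It fell by 1.41 in CD11b+ B cells against PMs (0.0201, and 0.000209 to 0.0807 over 16 alternatives), a call that was lost without PM replicate 2 (0.0707), CD11b+ replicate 1 (0.0785) or CD11b+ replicate 2 (0.0807).

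*Csf2rb* (ENSMUSG00000071713, chr15:78325752-78353847, plus strand), the shared beta subunit, was also lower in both B cell groups than in PMs. PMs had 24.7, 25.7 and 24.8 FPKM. CD11b- B cells had 5.92, 7.40 and 9.49 FPKM, and CD11b+ B cells had 10.9, 10.3 and 7.20 FPKM. The B cell groups overlapped through CD11b+ replicate 3, which lay below CD11b- replicates 2 and 3 (log2 difference 0.29, 95% interval -0.23 to 0.81, adjusted p = 0.727). *Csf2rb* fell by 1.33 on the log2 scale in CD11b+ B cells against PMs (adjusted p = 0.00230) and fell by 1.62 in CD11b- B cells against PMs (0.000698).

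*Csf2rb2* (ENSMUSG00000071714, chr15:78282507-78305721, minus strand), the beta subunit of the IL-3 receptor alone, had 6.31, 5.39 and 3.51 FPKM in PMs. CD11b- B cells had 0.322, 0.0181 and 0.362 FPKM, with replicate 2 nearly without reads, and CD11b+ B cells had 0.323, 0.492 and 0.365 FPKM. The B cell groups overlapped (log2 difference 0.19, 95% interval -0.20 to 0.57, adjusted p = 0.727). *Csf2rb2* fell by 2.10 in CD11b+ B cells (adjusted p = 0.00181) and fell by 2.28 in CD11b- B cells (0.00102) against PMs.

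The 2 beta subunits are near copies, which bears on how reads are divided between them. Their coding sequences were 95.2% identical over 2631 aligned bases, taken from the transcripts of GENCODE M21. A stretch of 90 coding bases, picked for an identity near that of the whole alignment, is shown to make this visible. The bases that differ are in capitals. It lies in exon 4 of *Csf2rb* at chr15:78336348-78336437 (plus strand) and in exon 3 of *Csf2rb2* at chr15:78297013-78297102 (minus strand), on GRCm38.
Csf2rb: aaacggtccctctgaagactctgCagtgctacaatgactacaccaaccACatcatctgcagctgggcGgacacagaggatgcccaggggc
Csf2rb2: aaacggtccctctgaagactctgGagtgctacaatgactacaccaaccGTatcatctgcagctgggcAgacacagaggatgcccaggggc
The 2 genes differ at 4 positions of this stretch. Of all stretches of 150 bases, the length of 1 read, 3.34% of those of *Csf2rb2* and 2.30% of those of *Csf2rb* occurred unchanged in the other gene, so most such stretches occurred in 1 of the genes alone. Of stretches of 50 bases, 18.4% of those of *Csf2rb2* and 12.3% of those of *Csf2rb* did so, which bears on reads shortened by trimming. No source used here says how reads that match both were counted, so the division is uncertain.

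*Csf2rb* made up 79.6%, 82.7% and 87.6% of the summed FPKM of both beta subunits in PMs. In CD11b- B cells the shares were 94.8%, 99.8% and 96.3%, and in CD11b+ B cells 97.1%, 95.4% and 95.2%. All B cell libraries lay above all PM libraries. The difference from PMs was 13.7 percentage points for CD11b- and 12.6 for CD11b+ B cells (exact two-sided permutation test, p = 0.1 for each, the smallest that 3 against 3 libraries allow), and the B cell groups overlapped (p = 0.7 by the same exact test).

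*Csf3r* (ENSMUSG00000028859, chr4:126024550-126044440, plus strand), the G-CSF receptor, had 75.9, 50.1 and 62.6 FPKM in PMs. CD11b- B cells had 0.0581, 0.119 and 0.0605 FPKM, from 29 reads over the group. CD11b+ B cells had 1.81, 2.28 and 0.0550 FPKM. CD11b+ replicates 1 and 2 were well above every CD11b- library, and CD11b+ replicate 3 was below all of them. The group means differed 17.4 times. The log2 difference was 0.98 (SE 0.40, 95% interval 0.07 to 1.90), and it was not called (adjusted p = 0.643, and 7.48e-05 to 0.831 over the alternatives). Without CD11b+ replicate 3 the difference was 1.49, just short of the threshold (adjusted p = 0.0542). DESeq2 called *Csf3r* with a log2 fold change of 4.09 (adjusted p = 0.000713), and edgeR did not (4.08, 0.305), except when low genes were kept (4.06, 7.48e-05). Against PMs, *Csf3r* fell by 4.88 in CD11b+ B cells (adjusted p = 9.86e-05) and fell by 5.87 in CD11b- B cells (1.51e-06).

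Among the CD11b+ libraries, the one with the lowest *Csf3r*, replicate 3, was also the one with the lowest sum of neutrophil markers, 219 FPKM against 668 and 1604 FPKM. For *Csf1r* the order of the 3 libraries was that of the monocyte and macrophage markers, with 117 FPKM in replicate 3 against 317 and 294 FPKM. That list includes *Itgam*, which encodes CD11b and was used in the sort. Between the B cell groups, 13 of the 14 neutrophil markers and 11 of the 14 monocyte and macrophage markers were higher without overlap, where 8.63% of all genes were. Of the neutrophil markers, limma called *S100a8*, *S100a9* and *Retnlg* higher, and of the monocyte and macrophage markers it called none, where 0.0689% of all genes were called higher. At an unadjusted p under 0.05 in limma there were 14 neutrophil markers and 10 monocyte and macrophage markers, where 7.68% of all genes were. The part of myeloid cells in the CD11b+ sort in the *Csf1r* and *Csf3r* values was not tested.

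**Figure D2:**
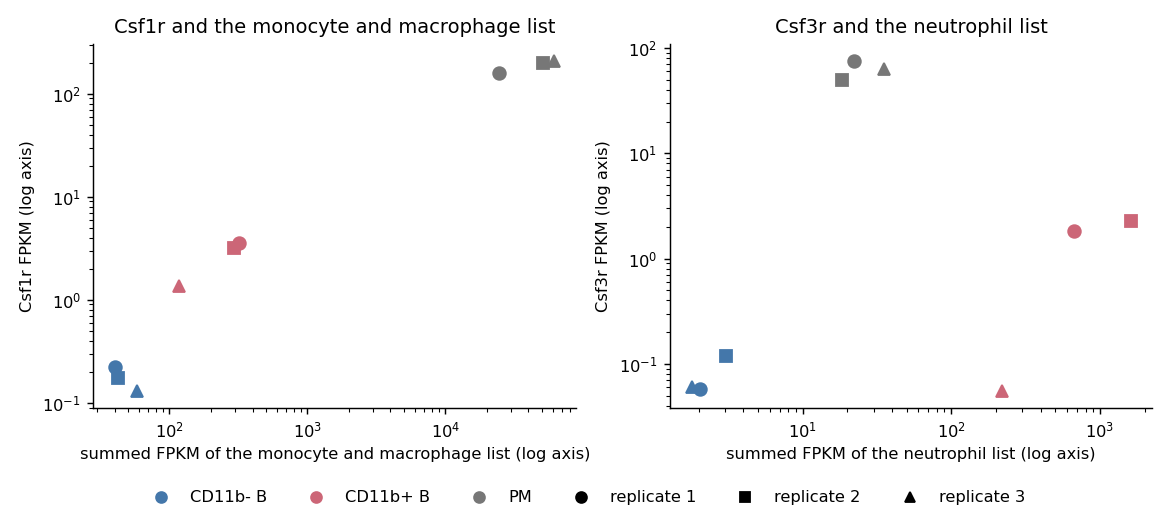
*Csf1r* FPKM against the summed FPKM of the 14 monocyte and macrophage markers (left) and *Csf3r* FPKM against that of the 14 neutrophil markers (right), each point a library, on log axes. CD11b+ replicate 3 (triangle) is the lowest of its group on every axis, and PMs have the highest *Csf3r* at 18.5 to 35.4 FPKM of neutrophil markers.

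The plot of receptors against markers shows that *Csf3r* and neutrophil markers did not keep 1 order across the 3 groups, since PMs had much more *Csf3r* than CD11b+ B cells and far less of the neutrophil markers. Other lists were also present in PMs: mast cell and basophil markers summed to 15.9 to 25.1 FPKM there, against 2.98 to 3.19 FPKM in CD11b+ and 0.117 to 0.162 FPKM in CD11b- B cells, and conventional dendritic cell markers to 86.7 to 108 FPKM in PMs. In PM replicate 1, where *Flt3* stood apart, the conventional dendritic cell markers summed to 108 FPKM against 104 and 86.7 FPKM in the other PM libraries, mostly from *Cd209a*, *Clec10a* and *Batf3*. Of the defining markers, *Xcr1* had 1.81 FPKM in PM replicate 1 and 0 in the others, *Zbtb46* had 1.77 against 0.938 and 0.542 FPKM, and *Clec9a* had 0 against 0.509 and 0.361 FPKM. The part of dendritic cells in the *Flt3* level of PM replicate 1 was not tested.

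Of the 8 genes, limma called 0 in either direction between the B cell groups, and of all genes tested it called 0.0689% higher and 0% lower in the CD11b+ group. At an unadjusted p under 0.05 there were 3 of 8 (*Csf1r*, *Flt3* and *Csf3r*), against 7.68% of all genes. By overlap, 2 of 8 (*Csf1r* and *Flt3*) had all CD11b+ libraries above all CD11b- libraries and 0 had the opposite, against 8.63% and 6.32% of all genes. The count tests gave more calls: edgeR called *Csf1r* higher, with 0.269% of all genes called higher and 0% lower, while edgeR without a filter and DESeq2 called *Csf1r* and *Csf3r* higher, with 1.11% and 1.82% of all genes called higher. The median log2 difference of the 8 genes was 0.34, against 0.03 over all genes tested, and 6 of 8 were above 0.

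Against PMs, the same 6 genes (*Csf1r*, *Csf2ra*, *Il3ra*, *Csf2rb*, *Csf2rb2* and *Csf3r*) were lower in both B cell groups, and both comparisons used the same PM libraries. That was 6 of 7 tested in CD11b+ B cells, where 8.78% of all genes were called lower and 21.5% higher, and 6 of 8 in CD11b- B cells, where 11% were called lower and 25.8% higher. The median log2 difference was -2.10 for CD11b+ and -2.04 for CD11b- B cells, against 0.25 and 0.24 over all genes. Median-ratio scaling lowered the median of all genes to 0.13 and 0.07, and the share of calls that were higher from 71.0% to 53.2% for CD11b+ and from 70.1% to 52.5% for CD11b- B cells, and under it the same 6 genes were called lower.

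**Figure D3:**
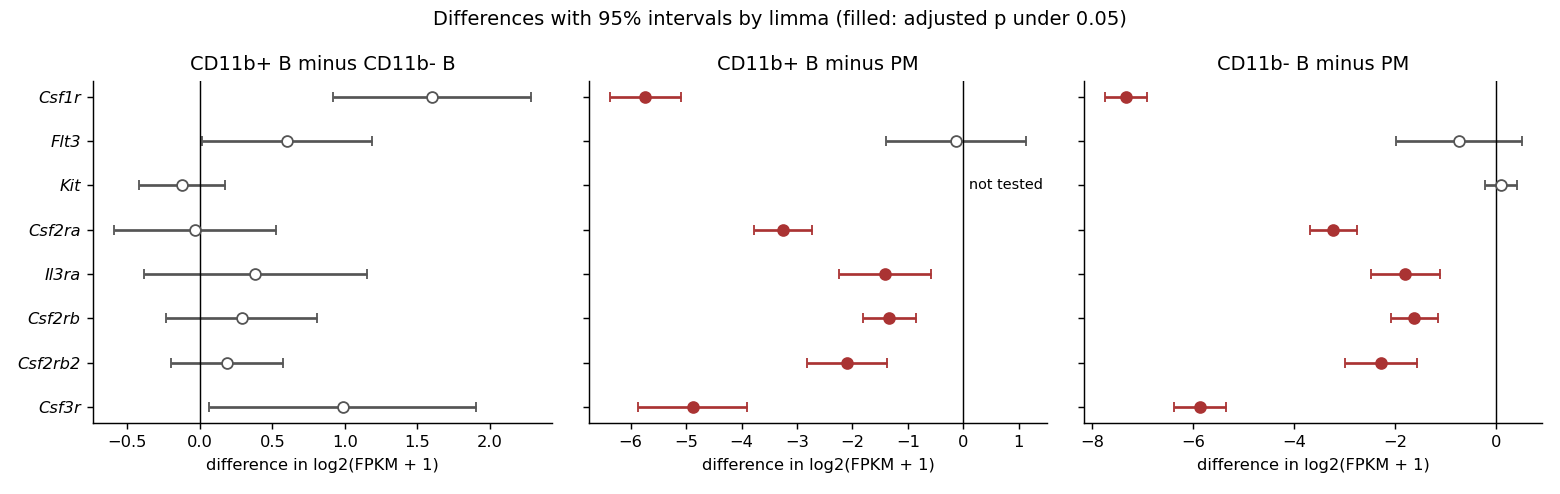
Difference in log2(FPKM + 1) of each receptor gene (horizontal axis) in the 3 comparisons, with 95% intervals by limma, 3 libraries a group. Filled points passed an adjusted p under 0.05: none between the B cell groups, and 6 on the lower side in each comparison with PMs, from -1.33 to -7.33.

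The plot of differences shows the widest gaps to PMs for *Csf1r* and *Csf3r* and narrower ones for the subunits of the GM-CSF and IL-3 receptors. The order of levels also differed between the groups. In PMs it ran *Csf1r*, *Csf2ra*, *Csf3r*, *Csf2rb*, *Il3ra*, *Csf2rb2*, *Flt3* and *Kit*, and the libraries of *Il3ra*, *Csf2rb2* and *Flt3* overlapped with their neighbours. In CD11b- B cells it ran *Csf2ra*, *Csf2rb*, *Il3ra*, *Flt3*, *Csf2rb2*, *Csf1r*, *Kit* and *Csf3r*, where *Csf2ra* and *Csf2rb* overlapped, *Il3ra* overlapped with no other, and the last 5 each overlapped with a neighbour. In CD11b+ B cells it ran *Csf2ra*, *Csf2rb*, *Csf1r*, *Il3ra*, *Csf3r*, *Flt3*, *Csf2rb2* and *Kit*, where *Csf2ra* overlapped with *Csf2rb*, and *Csf1r*, *Il3ra*, *Csf3r* and *Flt3* overlapped with each other while *Csf2rb2* and *Kit* overlapped with no neighbour in the order.

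The summed FPKM of the 8 genes was 399 ± 5.97 (SD, n = 3) in PMs, 20.7 ± 4.15 in CD11b- B cells and 27.8 ± 2.70 in CD11b+ B cells. No group overlapped with another, and each pair gave p = 0.1 in an exact two-sided permutation test, the smallest possible. *Csf1r* made up 47.5% ± 6.15 of the sum in PMs, 0.907% ± 0.440 in CD11b- B cells and 9.63% ± 4.07 in CD11b+ B cells. *Csf3r* made up 15.8% ± 3.24 in PMs, 0.385% ± 0.143 in CD11b- B cells and 4.79% ± 3.97 in CD11b+ B cells, where replicates 1, 2 and 3 had 6.78%, 7.37% and 0.213%. Of the 8 genes, *Csf2ra* and *Csf2rb* made up most of the sum in B cells: *Csf2ra* made up 52.0% ± 4.68 in CD11b- and 37.9% ± 9.36 in CD11b+ B cells, and *Csf2rb* 36.7% ± 3.22 and 34.1% ± 6.57, against 27.0% ± 2.89 and 6.29% ± 0.203 in PMs.

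**Figure D4:**
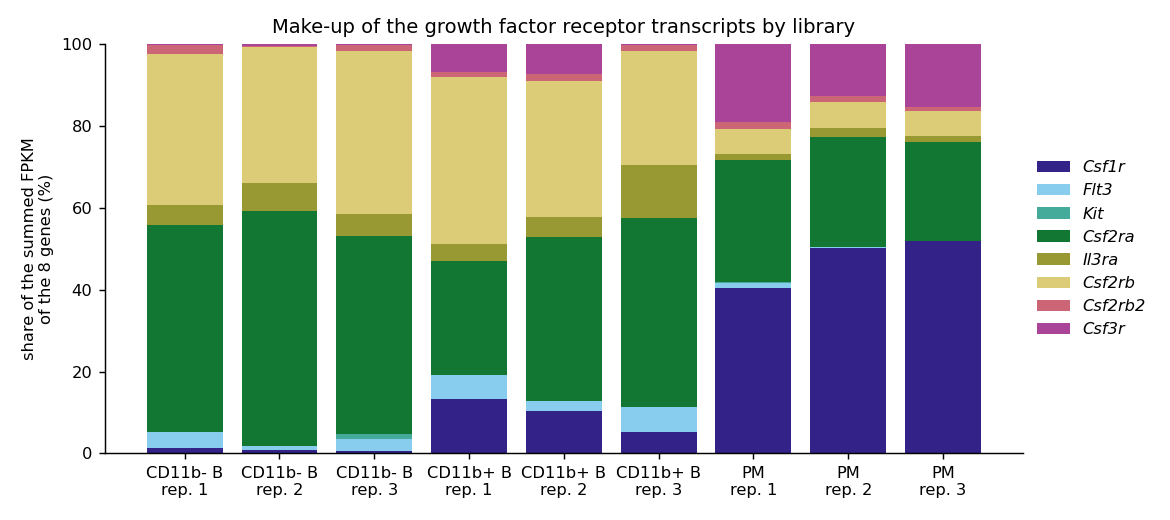
Share of each receptor gene in the summed FPKM of the 8 genes (vertical axis, in percent) in each library (bars). *Csf2ra* and *Csf2rb* fill most of the bar in the 6 B cell libraries, and *Csf1r* 40.5% to 51.8% in PMs. All CD11b+ libraries also show *Csf1r* (5.25% in replicate 3), and CD11b+ replicates 1 and 2 also show *Csf3r*.

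The plot of shares shows that the make-up of CD11b+ replicate 3 was nearest to that of CD11b- B cells for *Csf3r* and that it held the largest share of *Il3ra*. The balance of GM-CSF receptor subunits also differed. The ratio of *Csf2ra* to *Csf2rb* FPKM was 4.29 ± 0.455 in PMs, 1.43 ± 0.258 in CD11b- B cells and 1.18 ± 0.490 in CD11b+ B cells, with PMs above all B cell libraries (p = 0.1 for each, exact permutation test) and the B cell groups overlapping (p = 0.4, exact permutation test). The ratio of *Il3ra* to *Csf2rb* was 0.266 ± 0.0689 in PMs, 0.158 ± 0.0435 in CD11b- and 0.237 ± 0.199 in CD11b+ B cells, where replicate 3 had 0.465 and the others 0.0985 and 0.147 (p = 0.1 for CD11b- and 0.9 for CD11b+ B cells against PMs and 0.8 between the B cell groups, exact permutation tests). Since 10 such shares, sums and ratios were compared in each pair of groups, no adjusted p could be below 0.1.

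*Il5ra*, the IL-5 receptor alpha subunit that also pairs with *Csf2rb*, was chosen as a related receptor and went the other way from the alpha subunits above. B cells had 16.9, 14.1 and 10.5 FPKM in the CD11b- group and 13.7, 12.1 and 11.1 FPKM in the CD11b+ group, and PMs had 0.326, 0.115 and 0.0693 FPKM. *Il5ra* rose by 3.51 on the log2 scale in CD11b+ B cells against PMs (adjusted p = 5.28e-05) and by 3.65 in CD11b- B cells against PMs (5.31e-05). Between the B cell groups the difference was -0.14 (95% interval -0.59 to 0.31). *Il5ra* was 1.37 ± 0.631 times *Csf2ra* in CD11b- and 1.25 ± 0.515 times *Csf2ra* in CD11b+ B cells, and 0.00152 ± 0.00109 times in PMs.

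Of the other related receptors, *Il6ra* and *Il6st*, the binding and signalling chains for IL-6, and *Epor*, the erythropoietin receptor, were lower in both B cell groups than in PMs. *Il6ra* had 22.4 ± 8.50 FPKM in PMs, 0.815 ± 0.382 in CD11b- and 1.47 ± 0.181 in CD11b+ B cells. *Il6st* had 5.39 ± 0.649, 1.12 ± 0.115 and 0.759 ± 0.531 FPKM in the same order, and *Epor* 1.27 ± 0.573, 0.0864 ± 0.150 and 0.0408 ± 0.0317. The *Epor* call in CD11b- B cells was lost in edgeR and without CD11b- replicate 1 or 3, and that in CD11b+ B cells with no filter and without CD11b+ replicate 1 or 2. *Il7r* was not called in any comparison by limma, while edgeR, with and without a filter, called it higher in both B cell groups than in PMs and DESeq2 did not. *Pdgfra* and *Pdgfrb*, the platelet-derived growth factor receptors, were below the filter on low genes in limma, with at most 27 reads over a group.

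Most ligands of these receptors had few reads or none in the sorted cells. *Csf2*, *Csf3*, *Il3* and *Il5*, which encode GM-CSF, G-CSF, IL-3 and IL-5, had 0 reads in PMs and in CD11b- B cells, and 1, 1, 0 and 2 reads over the 3 CD11b+ libraries. Where no read was found, up to 3 over the group remain possible, which corresponds to 0.0195 to 0.0708 FPKM for these genes, and such limits cover counting error only. *Il34*, a second ligand of CSF1R, had 4 reads in PMs, 1 in CD11b- and 12 in CD11b+ B cells. *Flt3l*, the FLT3 ligand, was present throughout, at 5.29 ± 1.22 FPKM in PMs, 4.73 ± 1.12 in CD11b- and 5.86 ± 0.748 in CD11b+ B cells, with no call in any comparison. *Csf1* had 2.29 ± 0.668 FPKM in PMs, 0.829 ± 0.160 in CD11b- and 1.01 ± 0.546 in CD11b+ B cells, with a log2 difference of -0.83 for CD11b- B cells against PMs (adjusted p = 0.0493 in limma) and of -0.73 for CD11b+ B cells (0.141). The *Csf1* call in CD11b- B cells was lost without any 1 of the 6 libraries, with no filter and with a block by title number, while under median-ratio or quantile scaling limma called *Csf1* lower in both B cell groups. *Kitl*, which encodes stem cell factor, had 379 reads in PMs (0.366, 1.16 and 1.17 FPKM), 0 in CD11b- B cells (up to 0.00506 FPKM by the same limit) and 2 in CD11b+ B cells, and limma called it lower in both (adjusted p = 0.0167 and 0.0219). The *Kitl* call in CD11b- B cells was lost without any 1 of the CD11b- libraries, and that in CD11b+ B cells with no filter and without PM replicate 2 or 3 or any 1 of the CD11b+ libraries.

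The wider pathway was followed with 64 genes: the ligands and related receptors above, the JAK and STAT proteins, kinases and adaptors, negative regulators, targets, and the transcription factors of these receptors. Between the B cell groups limma tested 53 and called 0, with 7 at an unadjusted p under 0.05, where 7.68% of all genes were. The median difference was -0.22 on the log2 scale, against 0.03 over all genes, and it was -0.12 without CD11b- replicate 3, the library with the most precursor markers, and -0.06 with no filter on low genes. Of the 53, 16 (30.2%) were lower in CD11b+ B cells without overlap, where 6.32% of all genes were, and 5 were higher without overlap, where 8.63% of all genes were. Among them were *Jak1* (77.5 FPKM in CD11b- and 62.2 in CD11b+ B cells), *Stat5b* (19.7 and 13.8), the inhibitors *Inpp5d* (47.5 and 35.6), *Sh2b3* (90.1 and 67.2) and *Dusp6* (47.4 and 28.5), and, with the opposite sign, the adaptor *Tyrobp* (50.3 and 81.5). The adjusted p of these genes in limma ran from 0.311 to 0.631.

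The count tests called a few of these genes lower in CD11b+ B cells. DESeq2 called *Dusp6*, which inactivates ERK kinases, and *Meis1*, a transcription factor of progenitors (0.292 FPKM in CD11b- and 0.0762 in CD11b+ B cells), where it called 0.271% of all genes lower. Without a filter, edgeR called *Dusp6*, *Il7r*, the survival gene *Bcl2l1* and the kinase *Pim2*, where it called 0.414% of all genes lower. The SD of *Il7r* and *Bcl2l1* in CD11b- B cells (20.7 and 12.4 FPKM) exceeded their means (12.6 and 10.2 FPKM).

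Against PMs, 15 of 55 tested pathway genes rose and 15 fell in CD11b+ B cells, and 18 of 54 rose and 15 fell in CD11b- B cells. For CD11b+ B cells 27.3% thus rose, against 21.5% of all genes, and 27.3% fell, against 8.78%. For CD11b- B cells 33.3% rose, against 25.8% of all genes, and 27.8% fell, against 11%. The medians of 0.20 and 0.36 on the log2 scale were near those of all genes (0.25 and 0.24) and turned to -0.19 and -0.10 under median-ratio scaling. In CD11b- B cells, 2 of 6 JAK and STAT genes rose and 0 fell, 8 of 15 kinases and adaptors rose and 3 fell, 5 of 13 negative regulators rose and 2 fell, 2 of 7 targets rose and 1 fell, and 0 transcription factors rose and 4 fell. In CD11b+ B cells the counts that rose and fell were 1 and 0, 6 and 3, 5 and 3, 2 and 1, and 0 and 4 in the same order. Each change named next passed limma at an adjusted p of at most 0.0205 unless its own p is given. *Jak1*, a kinase of many cytokine receptors, rose by 0.99 in CD11b+ and by 1.31 in CD11b- B cells, and the call in CD11b+ B cells was lost under median-ratio scaling and in edgeR and DESeq2. *Stat5a* differed by 0.96 in CD11b- B cells (adjusted p = 0.0205) and by 0.64 in CD11b+ B cells (0.131), and its call was lost under median-ratio and quantile scaling, in edgeR and DESeq2, and without CD11b- replicate 1 or 3. Among adaptors *Tyrobp*, which couples activating receptors to SYK, fell from 3202 ± 706 FPKM in PMs to 81.5 ± 11.0 in CD11b+ and 50.3 ± 10.5 in CD11b- B cells, and the kinase *Fes* fell by 2.63 in CD11b+ and fell by 2.38 in CD11b- B cells on the log2 scale.

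Among negative regulators, *Dok2* fell from 98.9 ± 9.18 FPKM in PMs to 0.810 ± 0.657 in CD11b+ and 0.300 ± 0.210 in CD11b- B cells, and *Socs3*, the inhibitor that binds the G-CSF receptor, fell from 34.8 ± 9.59 to 4.65 ± 1.24 and 3.79 ± 1.14. Among target genes, *Pim2* and the cyclin *Ccnd2* were higher in both B cell groups: *Pim2* had 40.0 ± 5.85 FPKM in CD11b+, 72.3 ± 38.9 in CD11b- B cells and 2.43 ± 1.87 in PMs, and *Ccnd2* 57.6 ± 12.6, 59.9 ± 17.3 and 4.19 ± 2.14. Of the transcription factors, *Cebpa*, which drives *Csf3r* and other myeloid genes, fell from 17.8 ± 2.34 FPKM in PMs to 0.158 ± 0.105 in CD11b+ and 0.0191 ± 0.0179 in CD11b- B cells. *Spi1*, which encodes PU.1, a factor of both macrophages and B cells, fell less, from 96.7 ± 31.7 to 37.8 ± 4.75 and 43.9 ± 6.18 FPKM, and its call in CD11b- B cells was lost without CD11b- replicate 1 or 2.

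Since *Cebpa* and *Spi1* differed among the groups, the 250 bases before the RefSeq transcription start (GRCm38.p6) were searched on both strands for 4 short motifs. For PU.1 the letters were GAGGAA. For C/EBP factors they were TTNNGCAA. For RUNX factors they were TGTGGT and for GATA factors they were AGATAA. The promoters searched were those of *Csf3r*, *Kit*, *Flt3*, *Il3ra*, *Csf2rb2* and *Csf2ra*. *Csf2rb* had no entry, and the promoter of *Csf1r* was left out and is not reported here. The promoters of *Csf3r* and *Csf2ra*, which were high in PMs, and of *Flt3*, which was not, are shown with each match in capitals.
Csf3r, chr4:126024409-126024658, plus strand: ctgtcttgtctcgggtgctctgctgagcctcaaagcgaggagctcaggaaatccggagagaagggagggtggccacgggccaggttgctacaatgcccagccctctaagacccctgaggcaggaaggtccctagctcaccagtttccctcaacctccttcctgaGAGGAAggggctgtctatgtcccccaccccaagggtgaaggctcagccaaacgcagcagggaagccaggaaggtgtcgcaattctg
Csf2ra, chr19:61228419-61228668, minus strand: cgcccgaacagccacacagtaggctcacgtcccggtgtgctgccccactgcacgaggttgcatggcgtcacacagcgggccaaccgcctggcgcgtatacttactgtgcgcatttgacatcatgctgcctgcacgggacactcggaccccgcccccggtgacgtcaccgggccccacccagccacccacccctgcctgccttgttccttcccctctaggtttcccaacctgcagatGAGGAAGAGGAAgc
Flt3, chr5:147400490-147400739, minus strand: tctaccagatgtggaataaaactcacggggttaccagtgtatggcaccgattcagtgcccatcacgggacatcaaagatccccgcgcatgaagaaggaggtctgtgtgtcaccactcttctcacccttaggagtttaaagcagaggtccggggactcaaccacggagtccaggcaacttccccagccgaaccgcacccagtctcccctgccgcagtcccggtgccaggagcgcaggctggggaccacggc
*Csf3r* held GAGGAA at 86 to 81 bases before the start, and *Csf2ra* held it at 14 to 9 and at 8 to 3 bases before the start. *Kit* and *Csf2rb2* held the PU.1 letters as well, *Il3ra* held those of C/EBP, and none of the 4 motifs was in this window of *Flt3*. Of 32851 RefSeq promoters, windows of the same 250 bases held the PU.1 letters in 23.3%, those of C/EBP in 9.56%, RUNX in 14.05% and GATA in 9.99%, so each match is a description of the letters and not a site.

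Of all genes with a mean of at least 1 FPKM (12493), those with the profile most like each receptor that also reached that mean, which *Kit* did not, were found over the 9 libraries by Pearson's r of log2(FPKM + 1), which mainly follows the difference between PMs and B cells that the libraries share. *Csf1r* was most like *Anxa3*, *Pla2g7* and the Fc receptor *Fcgr3* (r = 0.999 for each, n = 9). *Fcgr3*, for example, had 525 to 747 FPKM in PMs, 0.535 to 0.990 in CD11b- and 6.55, 5.66 and 2.37 FPKM in CD11b+ replicates 1, 2 and 3. *Csf3r* was most like *Lcp2*, an adaptor of immune receptors (r = 0.999), *Gm36161* and the Fc receptor *Fcgr4*. *Lcp2* had 1.61, 2.55 and 0.204 FPKM in CD11b+ replicates 1, 2 and 3, the same order as *Csf3r*. *Csf2ra* was most like *Mgat4b* and *Nat8l* (r = 0.995 for each). *Il3ra* was most like the retinoic acid receptor *Rara* (r = 0.988), *AB124611* and *S100a10*, and *Rara* was also highest among B cells in CD11b+ replicate 3, at 10.9 FPKM. *Csf2rb* was most like *Alox5ap* (r = 0.986), *Pygl* and *Steap3*, and *Csf2rb2* was most like the inflammasome adaptor *Pycard* (r = 0.993), *5730409E04Rik* and *Ppt2*. *Flt3* was most like *Mir6994* (r = 0.968), *Dpy19l4* and *Gm11522*, and all 3 were highest in PM replicate 1.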

How the data were processed

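Libraries were made with a SMART-seq HT kit and read from both ends (9 libraries, 18014658 to 35251215 reads on genes). Per the submitters' processing notes and the methods, the authors trimmed reads (Trim Galore 0.4.4, Trimmomatic 0.36, cutadapt 1.16), mapped them with STAR 2.7.2b and counted them with featureCounts 1.6.1. No source used here gives the strand setting. The authors deposited FPKM for 55322 genes and a normalized signal, counts divided by size factors, for 11063. Here FPKM times exon length, divided in each library by what 1 read is worth (found from the low values), gave whole reads for 100% of values, within 0.05. These reads served the count tests, the library depths, the read counts and their limits, and the *Csf2rb* share taken from reads.

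limma 3.58.1 (eBayes with trend, two-sided, R 4.3.3) was fitted to log2(FPKM + 1), per pair of groups, keeping genes whose mean FPKM reached 0.05, and p-values were adjusted by Benjamini-Hochberg. Single values had exact permutation tests (SciPy 1.17.1). Alternatives were a pseudocount of 0.1, other filters, 1 fit of all 9 libraries, replicate blocks, median-ratio and quantile scaling, edgeR 4.0.16, DESeq2 1.42.0 and leaving out each library. The limma, edgeR and DESeq2 fits were tested on simulated counts with known changes in genes of a mean FPKM of at least 1. The simulated spread was the same for all genes, so lower genes and wider spreads were not covered. Positions are those of GENCODE M21 by identifier, since 1462 of 52046 matched identifiers had the same start in the table. Receptors and lists were chosen with earlier results of these data known. Genes named outside the 8 were all ligands and related receptors, per other pathway group the 2 largest called differences, and per receptor the 3 most similar profiles; the genes with an unadjusted p under 0.05 or called by a count test, and single markers, were named after their values were seen. Some genes that these rules name are not reported here.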

Additional observations from a re-analysis of the deposited data

How the results depend on the processing

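Of 368 recomputed differences of single receptor genes, 351 kept their direction and their side of the threshold. Between CD11b+ and CD11b- B cells, the number of all genes called was 15, and became 37 with a pseudocount of 0.1, 2 with no filter, 31 with a minimum mean FPKM of 1, 36 with all 9 libraries in 1 fit, 9 with quantile normalization, 42 with edgeR, 571 with edgeR without a filter, 401 with DESeq2, and 3 to 40 with a library left out (40 without CD11b+ replicate 3, and 3 to 7 without each of the others). The number of receptors called higher, 0, became 1 with edgeR, 2 with edgeR without a filter, 2 with DESeq2, and 0 to 1 with a library left out; pathway genes called lower became 4 with edgeR without a filter and 2 with DESeq2. Pathway genes called lower in CD11b- B cells against PMs, 15, ranged from 9 to 14 with a library left out, 9 without CD11b- replicate 1. The *Csf2ra* difference between the B cell groups (-0.03) reversed to 0.09 and 0.02 without CD11b- replicates 2 and 3 and to 0.18 without CD11b+ replicate 1 (range -0.21 to 0.18), *Flt3* in CD11b+ B cells against PMs to 0.51 without PM replicate 1 and to 0.05 without CD11b+ replicate 2 (range -0.50 to 0.51), and *Kit* in CD11b- B cells against PMs to -0.044 with quantile normalization. The *Csf2rb* share differed by -1.05 percentage points between the B cell groups and by -2.12 to 0.34 with a library left out (0.34 without CD11b- replicate 2), and by 9.57 in place of 13.7 between CD11b- B cells and PMs when taken from reads. The causes were not tested.

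With a replicate block by the number in the titles, 16 genes were called between the B cell groups, and with a block by the number in the descriptions, of which only 2 are shared, 0. Same-numbered libraries by title correlated at 0.28, -0.02 and 0.21 in their deviations from the group means. The pairs at 0.28 and 0.21 are those that also share a description number and were the highest of the 9 B cell pairs, and CD11b+ replicate 2 correlated more with CD11b- replicate 1 (0.14). The labels do not say what either number marks, so whether the libraries were paired is not known. The blocks changed no call of a receptor. At 12 to 100 reads a group, *Kit* levels are limited by depth.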
